A study of Komagataella phaffii GS115 with 2 samples.

Results

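The genes described here encode the 10 core enzymes with which Komagataella phaffii oxidises and assimilates methanol. They are AOX1, AOX2, CTA1, PMP20, FLD1, FGH1, FDH1, DAS1, DAS2 and DAK, taken by locus tag from a given list, and all 10 were found among the 5040 genes measured. The signal is a chromatin immunoprecipitation with sequencing (ChIP-seq) for H3K36me3, a trimethylated lysine of histone H3 in the nucleosome, in strain GS115. GS115, a histidine auxotroph in general use, is called wild type in the series, with no other genotype or treatment. The labels name 2 H3K36me3 libraries in 1 group, and the values are 1 column of FPKM deposited with replicate 1. FPKM is the number of fragments on a gene per length of the gene and per total of fragments. Per the labels, shaken cultures were fixed in 1% formaldehyde for 15 min and sheared to about 200 bp, and the labels name no carbon source. Whether methanol was present is therefore not known.

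Methanol enters metabolism in the peroxisome, where alcohol oxidase converts it to formaldehyde and hydrogen peroxide. Catalase and a peroxiredoxin remove the peroxide. Formaldehyde is then either oxidised to CO2 in the cytosol, which yields NADH, or joined to xylulose 5-phosphate and carried into central carbon metabolism. In this yeast the genes of these enzymes are known for repression on glucose and very strong transcription on methanol, and the AOX1 promoter drives much recombinant protein production. H3K36me3 is known from budding yeast as a mark that Set2 places over transcribed gene bodies behind RNA polymerase II.

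Most of the methanol enzyme genes lay in the upper part of the H3K36me3 range. None was more than 25% from the all-gene median, but only 8.27% of all genes were. Their median was 151 FPKM, against 138 FPKM over all 5040 genes, a difference of 9.10%. The values of 8 genes were above the all-gene median, where 50% of genes lie, and those of FGH1 and PMP20 were below it. FDH1, AOX2, AOX1, CTA1, DAK, DAS2 and FLD1 were also above the 75th percentile of all genes, 148 FPKM. That is 7 of 10 genes, where 25% of all genes lie above it. This cut was added after the data were examined, and FLD1 passed it narrowly, at 148.6 against 147.8 FPKM. FDH1 alone passed the 95th percentile, 164 FPKM, above which 5% of all genes lie. From highest to lowest the order was FDH1, AOX2, AOX1, CTA1, DAK, DAS2, FLD1, DAS1, FGH1 and PMP20.

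The differences were small on the scale of fold change, as they were for most genes of the genome. No member was more than 25% above the all-gene median, where 2.22% of genes were, and none was more than 25% below it, where 6.05% were (8.27% in either direction). More than 10% above it were 4 of the 10 (FDH1, AOX2, AOX1 and CTA1), against 16.2% of all genes. More than 10% below it was 1 of the 10 (PMP20), against 22.7% of all genes. The highest member had 1.53 times the FPKM of the lowest. The coefficient of variation was 11.6% over the 10 members (148 ± 17.2 FPKM, mean and SD over genes) and 14.5% over all genes. The 10 genes made up 0.211% of the summed gene length and took 0.233% of the fragments that the FPKM values imply. There is 1 value per gene and no replicate error, so no test could be made and neighbouring places in the order cannot be told apart by an error. The values are relative neither to input nor to H3, and what nucleosome density, copy number or mapping contribute to them was not tested.

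**Figure D1:**
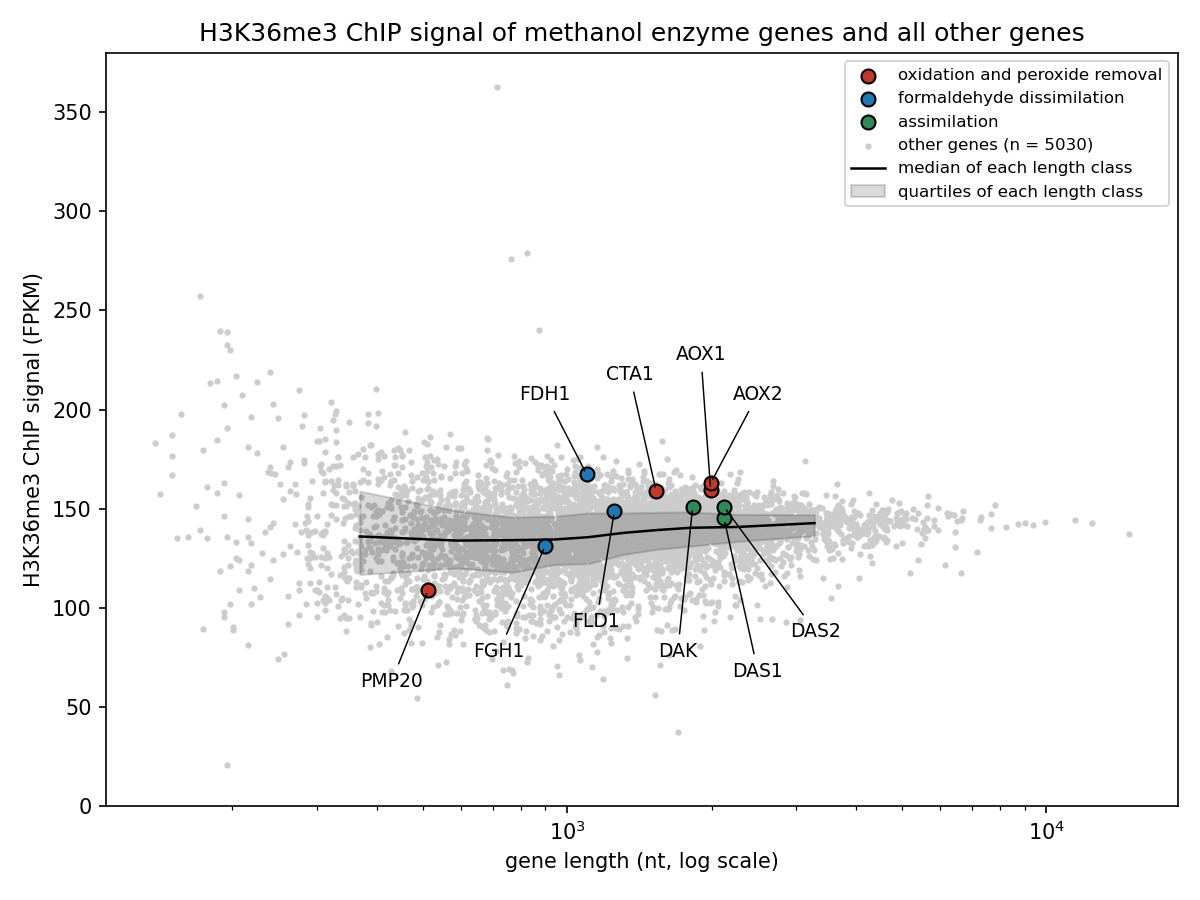
H3K36me3 ChIP signal (FPKM) of the 10 methanol enzyme genes (large points, coloured by metabolic step) and of the other 5030 genes (grey points) against gene length (nt, log scale). The line and band are the median and quartiles of 10 length classes of 504 genes, drawn at the median length of each class. AOX1, AOX2, CTA1 and FDH1 lie above the band, between 159 and 167 FPKM, DAS2, DAK and FLD1 lie just over its upper edge, and PMP20 lies below it at 109 FPKM.

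AOX1 and AOX2 encode the alcohol oxidases that carry out the first step. AOX1 supplies most of the activity in cells on methanol. AOX1 (PAS_chr4_0821, chromosome 4, 1992 nt) had 159 FPKM, 15.1% above the all-gene median and higher than 92.2% of all genes. AOX2 (PAS_chr4_0152, also on chromosome 4 and 1992 nt long) had 163 FPKM, 17.7% above the median and higher than 94.6% of genes. The values of the isoenzymes thus lay close together, AOX1 being 2.19% lower than AOX2. For scale, the median difference between adjacent genes anywhere in the genome was 11.6%, taken relative to the lower value. On that measure 11.7% of 5036 adjacent pairs differed by less than AOX1 and AOX2. The scale is rough, since AOX1 and AOX2 are not adjacent and the pairs mix genes of all lengths. The coding sequences of AOX1 and AOX2 are known to be very alike, so fragments could have been placed on either copy or dropped. The sources used here do not give how fragments with several matches were treated, and both values are uncertain to that extent.

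The enzymes that remove hydrogen peroxide lay on opposite sides of the all-gene median. CTA1 (PAS_chr2-2_0131, chromosome 2, 1533 nt), the peroxisomal catalase, had 159 FPKM, 14.8% above the all-gene median and higher than 91.8% of genes. PMP20 (PAS_chr1-4_0547, chromosome 1, 513 nt), a peroxisomal peroxiredoxin, had 109 FPKM. That was 21.2% below the median and higher than only 8.43% of genes. PMP20 was also the shortest of the 10 genes. Short genes spread more widely in these data. The 504 genes from 488 to 677 nt had an SD of 21.4 FPKM, against 9.70 FPKM in the 504 longest genes. Within its own length class PMP20 was 18.6% below the class median of 134 FPKM and above 13.5% of the class.

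The 3 enzymes that oxidise formaldehyde to CO2 covered most of the range of the set. FLD1 (PAS_chr3_1028, chromosome 3, 1254 nt), the glutathione-dependent formaldehyde dehydrogenase, had 149 FPKM and was higher than 76.4% of genes. FGH1 (PAS_chr3_0867, chromosome 3, 900 nt) encodes S-formylglutathione hydrolase, the next step, and had 131.3 FPKM. FGH1 was 5.08% below the all-gene median and higher than 34.0% of genes. FDH1 (PAS_chr3_0932, chromosome 3, 1098 nt), the formate dehydrogenase that releases CO2, had the highest value of the set, 167 FPKM. FDH1 was 20.9% above the all-gene median and 191st from the top of the 5040 genes. Consecutive enzymes of this branch therefore had unlike values, with the middle one lowest.

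The 3 assimilation genes had more similar values than those of either other step. They were also all long, and long genes spread less in these data. The lowest genes of the other steps, PMP20 and FGH1, had 513 and 900 nt. What length contributes to the unlike ranges was not tested. DAS1 and DAS2 encode dihydroxyacetone synthases, which transfer a glycolaldehyde unit from xylulose 5-phosphate to formaldehyde. DAS1 (PAS_chr3_0832, chromosome 3, 2124 nt) had 145 FPKM, 4.84% above the all-gene median and higher than 68.5% of genes. DAS2 (PAS_chr3_0834, chromosome 3, 2124 nt) had 151 FPKM, 9.09% above the median and higher than 81.3% of genes. DAS1 was 3.90% lower than DAS2, and 20.0% of adjacent pairs in the genome differed by less. DAS1 and DAS2 are close copies too, with the same limit on the placing of fragments as for AOX1 and AOX2. DAK (PAS_chr3_0841, chromosome 3, 1827 nt), the kinase that phosphorylates dihydroxyacetone, had 151 FPKM, 9.11% above the median. The assimilation genes ranged from 145 to 151 FPKM, the dissimilation genes from 131.3 to 167 FPKM, and the genes of oxidation and peroxide removal from 109 to 163 FPKM. The medians of the 3 steps were 151, 149 and 159 FPKM in that order, each above the 138 FPKM of all genes.

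The class medians were 136 FPKM in the shortest class, 134 FPKM in the genes of 488 to 677 nt and 143 FPKM in the longest class. The members were long, with a median of 1680 nt against 1197.5 nt over all genes. Set against the 504 genes of its own length class, each of 7 members lay above the 75th percentile of the class, where 24.8% of all genes do. The cut at the 75th percentile was added after the data were examined. Among the 7, AOX1, AOX2 and DAS2 have the limit on the placing of fragments given above. AOX2 was above 99.0% and AOX1 above 97.0% of the genes from 1656 to 2001 nt, by 16.1% and 13.5% of the class median of 140.3 FPKM. FDH1 was above 96.8% of the genes from 1026 to 1197 nt and 23.3% above their median. CTA1 was above 94.2% of the genes from 1404 to 1656 nt. DAS2, DAK and FLD1 were above 87.3%, 82.3% and 77.0% of their classes, and DAS1 was above 67.9% of its class. FGH1 was above 42.5% of its class and 2.30% below the class median.

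The genes next to the members in file order were often high as well. The 10 members had 19 distinct adjacent genes, none of them a member and none overlapping one. The members' median was 151 FPKM, and that of the adjacent genes was 148 FPKM (quartiles 131.3 and 159 FPKM). Of the adjacent genes, 10 of 19 (52.6%) were above the 75th percentile of all genes, against 25% of all genes. The members were above both adjacent genes in 4 cases of 10 (AOX2, CTA1, FLD1 and DAS1), against 31.8% of genes with a gene on each side. PMP20 alone was below both adjacent genes, against 31.8% of all such genes. The share above both neighbours was thus near that of the genome, and it was 2 of 6 without AOX1, AOX2, DAS1 and DAS2. Above the mean of the adjacent genes were 6 of 10 members, against 51.6% of genes. The median member was 3.63% above the mean of its adjacent genes, where the median gene of the genome was 0.591% above (quartiles -8.85% and 10.1%).

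The high members fell into different settings. AOX1 had 159 FPKM, against 182 FPKM in PAS_chr4_0820 before it and 148 FPKM in PAS_chr4_0823 after it. AOX2 had 163 FPKM, against 160.3 and 159.8 FPKM in PAS_chr4_0151 and PAS_chr4_0153. FDH1 had 167 FPKM, against 165 and 171 FPKM in PAS_chr3_0931 and PAS_chr3_1241. For these 3 genes both neighbours were also above the 75th percentile of all genes, and the gene itself differed from their mean by -3.63% for AOX1, 1.72% for AOX2 and -0.468% for FDH1.

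CTA1, FLD1 and DAS1 were above both of their neighbours, at least one of which was low. CTA1 had 159 FPKM, against 158 FPKM in PAS_chr2-2_0462 before it and 106 FPKM in PAS_chr2-2_0130 after it. FLD1 had 149 FPKM, against 118 and 141 FPKM in PAS_chr3_1027 and PAS_chr3_1029, and was the one member above the 75th percentile with neither neighbour above it. DAS1 had 145 FPKM, against 117 FPKM in PAS_chr3_1225 and 133 FPKM in PAS_chr3_0833. Relative to the mean of the adjacent genes CTA1 was 20.4%, DAS1 16.3% and FLD1 14.8% higher. Of all genes with a gene on each side, 90.6%, 86.3% and 84.5% had a lower value of that measure. DAS2 and DAK, with 151 FPKM each, stood between a lower and a slightly higher gene, at 133 and 153 FPKM for DAS2 and at 130.0 and 154 FPKM for DAK. The low value of PMP20, 109 FPKM, stood between 149 FPKM in PAS_chr1-4_0546 and 144 FPKM in PAS_chr1-4_0548. PMP20 was thus 25.6% below the mean of its neighbours, a measure on which 4.67% of genes were lower. That share is over genes of all lengths. PMP20 has 513 nt and these neighbours 4971 and 1434 nt, and what length contributes was not tested. FGH1 had 131.3 FPKM, against 142 FPKM in PAS_chr3_0866 and 130.0 FPKM in PAS_chr3_1231.

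**Figure D2:**
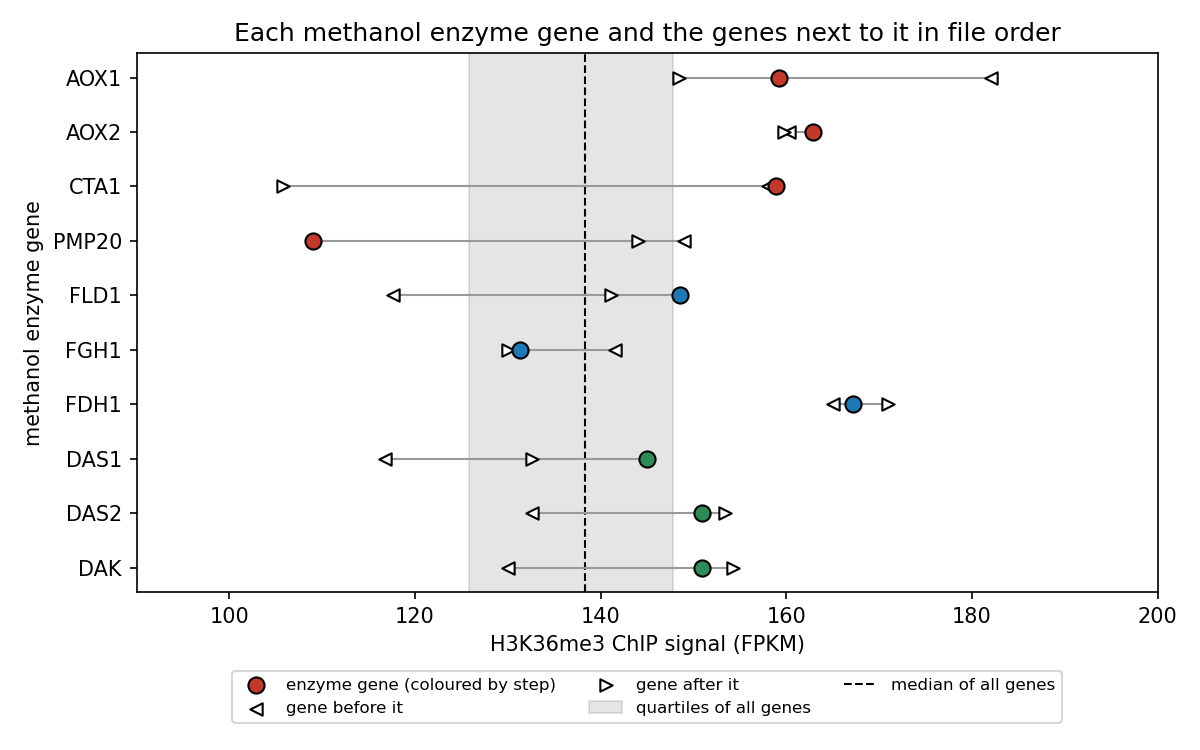
H3K36me3 ChIP signal (FPKM) of each methanol enzyme gene (filled circle: red for oxidation and peroxide removal, blue for formaldehyde dissimilation, green for assimilation) and of the genes before and after it in file order (open triangles). The grey band and dashed line are the quartiles and median of all genes. AOX1, AOX2 and FDH1 lie with both neighbours right of the band, while PMP20 lies left of it with both neighbours higher.

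With 5 genes on each side, 8 of the 10 members were above the median of their flanks, against 50.2% of genes with 5 on each side. AOX1 was 17.3% above its flank median of 136 FPKM, DAS2 14.9% above 131.3 FPKM and CTA1 14.1% above 139 FPKM. AOX2 was only 3.71% above its flank median, which was itself 157 FPKM, and 1 gene of that flank reached 210.3 FPKM. PMP20 was 23.5% below its flank median of 143 FPKM and was the lowest of its 11 genes. FGH1 was 7.40% below its flank median. CTA1 alone was the highest of its 11 genes, by a margin of 159 against 158.7 FPKM, where 8.78% of genes are the highest of such a run. Taken as a median over the set, the signal was 151 FPKM at the members, against 145 FPKM 1 place before and 146 FPKM 1 place after them. At 2, 3, 4 and 5 places before them the medians were 143, 135, 129 and 141 FPKM, and at 2 to 5 places after them between 138 and 142 FPKM. These flanks share genes where DAS1, DAS2 and DAK lie near each other.

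**Figure D3:**
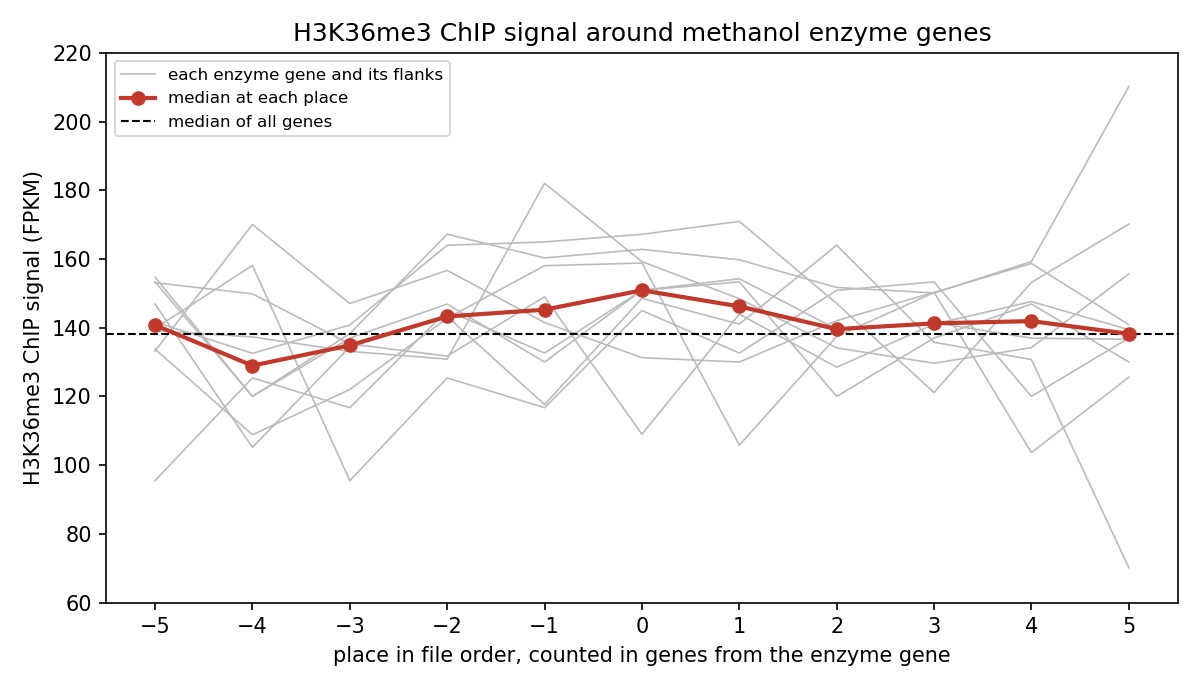
H3K36me3 ChIP signal (FPKM) against the place in file order, counted in genes from each methanol enzyme gene at 0. Grey lines are the 10 members with their flanks, red points the median at each place (other members left out of the flanks), and the dashed line the median of all genes, 138 FPKM. The median is 151 FPKM at the members and 145 and 146 FPKM 1 place away.

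DAS1, DAS2 and DAK lie in a stretch of 9 consecutive genes on chromosome 3. They had 145, 151 and 151 FPKM, against a median of 135 FPKM in the other 6 genes, which ranged from 120.0 to 153 FPKM. Only 2 of those 6 were above the all-gene median, PAS_chr3_0836 at 153 FPKM and PAS_chr3_0839 at 147 FPKM. PAS_chr3_0833, which lies between DAS1 and DAS2, had 133 FPKM. The lowest was PAS_chr3_0837 at 120.0 FPKM, a gene of 315 nt. Over the 9 genes the median was 145 FPKM, and 85.1% of 5008 runs of 9 genes on 1 chromosome had a lower median. The 5 genes on each side of the stretch had a median of 138 FPKM and ranged from 95.5 to 158 FPKM. The stretch thus held 5 genes above the genome median and 4 below it.

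**Figure D4:**
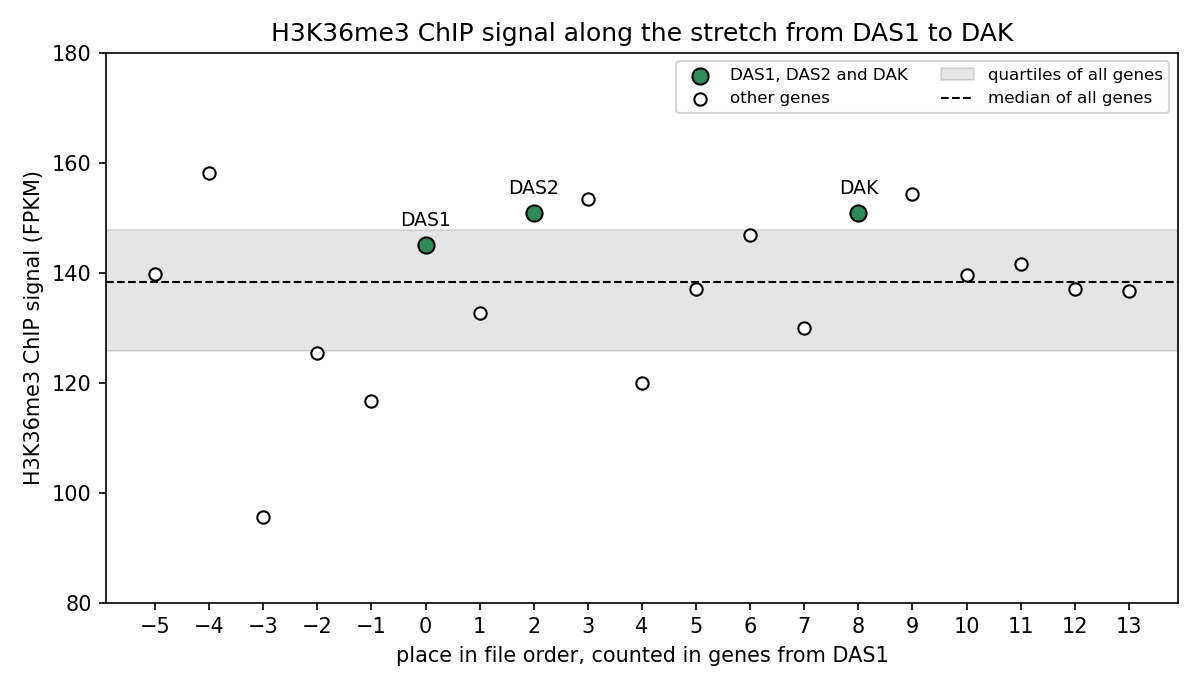
H3K36me3 ChIP signal (FPKM) along consecutive genes of chromosome 3, by place in file order counted from DAS1. Green points are DAS1, DAS2 and DAK and open points the other genes; the band and dashed line are the quartiles and median of all genes. DAS1, DAS2 and DAK lie between 145 and 151 FPKM, and PAS_chr3_0833 between DAS1 and DAS2 lies at 133 FPKM.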

How the data were processed

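H3K36me3 ChIP-seq values of K. phaffii GS115 were used as 1 column of FPKM for 5040 genes, calculated by the authors, per the file headers, and deposited with replicate 1. The sources used here do not give whether replicate 2 entered them, nor the counting tool, build or annotation. Per the submitters' processing notes the tools include Trimmomatic 0.39, FastQC 0.12.1, MACS2, Bowtie2, deepTools and SAMtools, without their roles. Sequencing depth is unknown, so no counting interval is given.

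All 5040 identifiers matched the RefSeq gene table of assembly ASM2700v1, which gave chromosome, length and overlap. No coordinates are given. Each member's FPKM was set against the median and percentiles of all genes, 10 length classes of 504 genes, and the genes next to it in file order. Log2 differences used log2(FPKM + 1). The ratio to the median and the percentile were checked on shuffled values with planted members. Of the adjacent genes only their number per member was checked, not which genes they are. Differences from neighbours, flanks and length classes were not checked in that way. Python 3.11.15, numpy 2.4.6, pandas 2.3.3 and matplotlib 3.10.9 were used. Named genes are the members, from a given list, their adjacent genes and the genes between DAS1 and DAK. Members and settings were chosen with earlier results of these data known. Symbols of the members come from that list. The table annotates no product, so the planned list of peroxisome biogenesis genes was left out.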

Additional observations from a re-analysis of the deposited data

How the results depend on the processing

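No paired analysis was possible because there is a single column of values, and leaving out each replicate in turn was not run for the same reason. The median of the members was 0.12 above that of all genes on the log2 scale and stayed between 0.11 and 0.13 under all 7 alternatives. Relative to adjacent genes it was 0.05 higher, against 0.15 with 5 genes and 0.13 with 10 genes on each side. It was 0.04 higher without AOX1, AOX2, DAS1 and DAS2, and 0.08 higher without FDH1. The median gene of the genome was 0.014 above its adjacent genes, and no such value was taken for 5 or 10 genes. Around DAS1, DAS2 and DAK these wider flanks share genes and include members. No member was past 25% from the median; 5 were past 10%, and 7 were above the 75th percentile. Members above both adjacent genes numbered 4, but 2 of the 6 left without the AOX and DAS genes, and 1 when 5 genes on each side had to be lower; the criterion itself is stricter there. The stretch from DAS1 to DAK was 0.07 above all genes on the log2 scale and 0.01 when extended by 5 genes on each side. No direction reversed. The filter at 1 FPKM removed no gene. The settings of the 75th percentile, 5 lower genes on each side, and leaving out PMP20 or FDH1 were added after the data were examined. Depth is unknown, so the counting error of a short gene such as PMP20 could not be given.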
